A study of Mus musculus with 8 samples.

Results

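Transcription factor genes of the endothelial lineage were followed in single cells from the mouse heart. They were chosen by name, and all 10 were present as rows of the count table of 16791 genes. Sox17, Sox18 and Sox7 belong to the SoxF family and Sox4 to the SoxC family. Erg, Fli1, Ets1 and Ets2 belong to the ETS family, Nr2f2 encodes the nuclear receptor COUP-TFII, and Mef2c encodes a MADS-box factor.

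SoxF and ETS factors bind the enhancers of many endothelial genes and are needed to form and maintain vessels. Sox17 is known as an arterial factor that acts with Notch signalling, whereas COUP-TFII specifies veins and lymphatic vessels and holds back Notch signalling. Mef2c drives endothelial genes downstream of blood flow and growth factors, among them the Klf2 and Klf4 genes, and also acts in muscle.

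The cells came from adult Pdgfb-iCreERT2-R26R-Brainbow2.1 mice of 8 to 10 weeks and of both sexes, which were heterozygous for both transgenes. Every mouse received 150 mg/kg tamoxifen, after which cells with activity of the Pdgfb promoter and their progeny carry a Confetti fluorophore, so that endothelial cells (EC) without recombination were not sampled. In the MI group (n = 4 mice: 244, 250, 255 and 256) the left anterior descending coronary artery was permanently ligated 14 days after tamoxifen, and hearts were taken 7 days post-MI. The healthy group (n = 4 mice: 227, 228, 239 and 240) had no surgery and was taken at the same 21 days after tamoxifen, so that the effect of ischaemia and that of the operation cannot be told apart. Ventricular cells that were CD31+, Confetti+ and podoplanin- were sorted, and 1 10X Chromium library of 3′ ends was made per mouse.

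The table held 31028 cells, with 6764977 to 8793655 unique molecular identifiers (UMIs) per healthy mouse and 15865234 to 27244947 per MI mouse. The healthy libraries shared cells: 2030 cells (55.3% of Healthy 228) were present in both Healthy 228 and 239, 301 (10.9% of Healthy 227) in both Healthy 227 and 228, and 2 in both Healthy 239 and 240. A cell counted as shared where a barcode was present in both libraries with at least 90% of the UMIs of its shallower copy on the same genes. The shallower copy held a median of 41.3% of the UMIs of the deeper one between Healthy 228 and 239 and 19.8% between Healthy 227 and 228. It was left out as the copied cell and the deeper one kept, which lay in Healthy 239 and 228 in these pairs. Which mouse a shared cell came from is not given, so an alternative added after seeing the data left out both cells of each pair, 1838 EC of Healthy 239, 284 of Healthy 228 and 1 of Healthy 240. Over all EC it changed no call of the 10 genes, and where it ended a call in a class this is given beside the value. Cells whose endothelial markers outweighed those of haematopoietic, mural, fibroblast and platelet cells were kept as EC, which left 26888 cells (1601 to 3574 per healthy and 3397 to 4822 per MI mouse). The median EC held 1872 to 2760 UMIs in healthy and 3407 to 4677 in MI mice, so that depth and group cannot be told apart in unthinned cells. All 15 endothelial markers were present, with summed levels of 10476 to 11505 CPM, that is UMIs scaled to a common total per mouse, in healthy and 9906 to 10505 in MI mice. The 20 haematopoietic markers reached 27.1 to 171 CPM in the EC of healthy and 321 to 548 CPM in those of MI mice, and their part in the results was not tested.

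The deposited table gives symbols only, and their positions are those of the GENCODE M21 annotation of GRCm38. The ETS genes lie in pairs on the same chromosomes, Fli1 (chr9:32422204-32542861, minus strand) with Ets1 (chr9:32636221-32757820, plus strand), and Erg (chr16:95359169-95586593, minus strand) with Ets2 (chr16:95702075-95721051, plus strand). The SoxF genes are spread over Sox17 (chr1:4490931-4497354, minus strand), Sox18 (chr2:181669836-181671640, minus strand) and Sox7 (chr14:63943673-63950732, plus strand). Sox4 (chr13:28948919-28953713, minus strand) and Mef2c (chr13:83504034-83667080, plus strand) share a chromosome, and Nr2f2 lies at chr7:70351944-70366735 on the minus strand.

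The first comparison asked how these genes differed between EC of infarcted and healthy hearts. Sox18 rose 2.91-fold and Nr2f2 2.17-fold post-MI, Erg rose slightly, and Sox7, Mef2c, Ets1 and Fli1 fell. Sox17, Ets2 and Sox4 did not pass the test. The UMIs of all EC of a mouse were summed and compared by the quasi-likelihood test of edgeR, adjusted over 12285 genes by the Benjamini-Hochberg method, with the mouse as the replicate. Of the 10 genes 7 were called, 3 higher and 4 lower, where 37.4% of all genes tested were called. The median log2 fold change was -0.28 over the 10 genes and -0.02 over all genes.

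**Figure D1:**
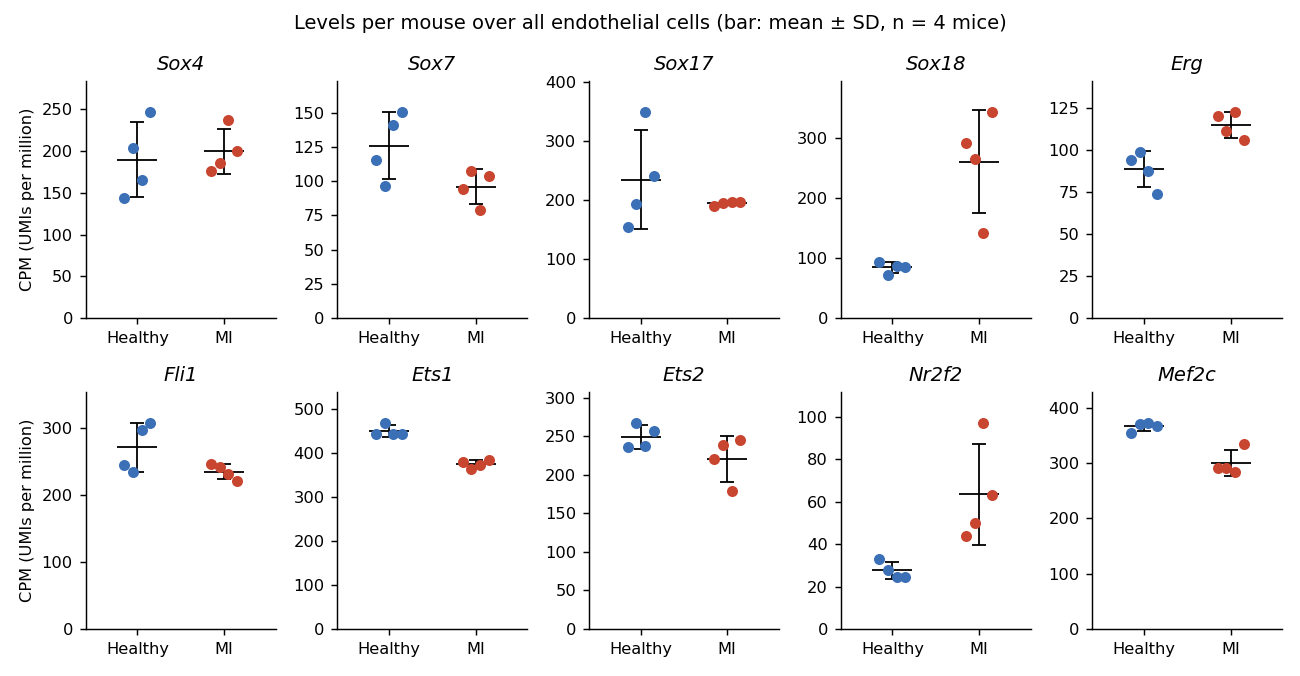
Level of each of the 10 genes in CPM (y axes, each from 0) in the EC of 4 healthy (blue) and 4 MI mice (red), with 1 point per mouse and bars for mean ± SD. The groups do not overlap for Sox18, Erg, Nr2f2, Ets1 and Mef2c, whereas the 4 MI points of Sox17 lie within the range of the healthy ones.

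Among the SoxF genes, Sox18 was measured at 94.2, 72.1, 87.2 and 85.0 CPM in healthy and at 292, 266, 142 and 344 CPM in MI mice (84.6 ± 9.22 against 261 ± 85.7, SD, n = 4 each). All MI mice lay above all healthy mice, with MI 255 the lowest of them. The log2 fold change was 1.54 ± 0.24 (SE, adjusted p = 0.00168, edgeR's quasi-likelihood test), and it stayed between 1.38 and 1.75 and was called in all 20 alternatives run for this comparison. Sox7, which shares its DNA-binding domain family with Sox17 and Sox18, had 115.5, 96.45, 141 and 150 CPM in healthy and 94.4, 107, 79.0 and 104 CPM in MI mice. The groups overlapped through Healthy 228, and the log2 fold change was -0.48 ± 0.14 (SE, adjusted p = 0.0250, edgeR's quasi-likelihood test). That call was lost without Healthy 239 (adjusted p = 0.0602), Healthy 240 (0.0634), MI 244 (0.0607) or MI 255 (0.0643), and with scaling to total UMIs (log2 -0.39, adjusted p = 0.0530). Sox17 spread widely among healthy mice, at 155, 194, 349 and 240 CPM, and little among MI mice, at 190, 196, 197 and 197 CPM. Its log2 fold change of -0.36 ± 0.20 (SE) was not called (adjusted p = 0.195, edgeR's quasi-likelihood test), but was called without Healthy 227 (log2 -0.52, adjusted p = 0.0353) and without both Healthy 227 and 228, the libraries with most copied cells (log2 -0.68, adjusted p = 0.0102). Over the 20 alternatives the Sox17 value lay between log2 -0.68 and -0.11, and these 2 alone called it.

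Of the ETS genes, Ets1, a factor of angiogenic and lymphoid cells, had 443, 468, 443 and 443 CPM in healthy and 378, 363.5, 371.5 and 384 CPM in MI mice. No MI mouse reached the lowest healthy mouse, and the log2 fold change was -0.35 ± 0.07 (SE, adjusted p = 0.00365, edgeR's quasi-likelihood test), called in all 20 alternatives. Erg, which maintains junctions and quiescence of the endothelium, had 93.8, 98.9, 87.5 and 74.0 CPM in healthy and 120, 111.5, 123 and 106 CPM in MI mice. The groups did not overlap, and the log2 fold change was 0.29 ± 0.10 (SE, adjusted p = 0.0420, edgeR's quasi-likelihood test). The Erg call was lost without Healthy 227 (adjusted p = 0.0593), 239 (0.0817) or 240 (0.0948) and without MI 244 (0.104), 250 (0.0708) or 255 (0.100). It was also lost with each cell thinned to 1000 UMIs (log2 0.35, adjusted p = 0.0702), over all deposited cells other than copies (adjusted p = 0.0988) and with Xist as a covariate (adjusted p = 0.0533). Fli1, which is active in endothelial and blood cells, had 244, 234, 297 and 307 CPM in healthy and 246, 242, 230 and 220 CPM in MI mice. These groups overlapped, with the high healthy values in mice 239 and 240. Its log2 fold change was -0.30 ± 0.10 (SE, adjusted p = 0.0345, edgeR's quasi-likelihood test). The Fli1 call was kept without Healthy 227 or 228 and lost without Healthy 239 (adjusted p = 0.0825) or 240 (0.0940) and without each MI mouse, 244 (0.0548), 250 (0.0635), 255 (0.0845) and 256 (0.0708). In all it was lost in 12 of 20 alternatives, among them thinning to 1000 UMIs per cell (log2 -0.23, adjusted p = 0.115), scaling to total UMIs (log2 -0.21, adjusted p = 0.130), keeping the copied cells (adjusted p = 0.0558), leaving out cells with a UMI of Plvap (0.0549), no filter on low counts (0.0525) and Xist as a covariate (0.0527). Ets2, a factor downstream of mitogen signalling, had 236, 268, 237 and 257 CPM in healthy and 220.5, 238, 179 and 245 CPM in MI mice, with a log2 fold change of -0.27 ± 0.11 (SE) that was not called (adjusted p = 0.0883). With each cell thinned to 1000 UMIs the Ets2 value was log2 -0.14 (adjusted p = 0.345, edgeR's quasi-likelihood test).

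Nr2f2, the venous factor, had 33.0, 28.0, 24.6 and 24.7 CPM in healthy and 43.9, 50.2, 97.3 and 63.1 CPM in MI mice. The groups did not overlap and MI 255 was highest. The log2 fold change was 1.12 ± 0.23 (SE, adjusted p = 0.00558, edgeR's quasi-likelihood test). It was 0.79 (adjusted p = 0.0135) once cells with a UMI of Plvap were left out and 0.74 (adjusted p = 0.0323) over all deposited cells other than copies, and Nr2f2 was called in all 20 alternatives. Markers of other cells with Nr2f2 were measured beside it: the 11 mural markers summed to 77.6 to 147 CPM in healthy and 87.3 to 137 CPM in MI mice, and the 6 lymphatic markers to 4.87 to 102 and 38.0 to 218 CPM. Without the cells that carried lymphatic markers the Nr2f2 log2 fold change was 1.155 (adjusted p = 0.00654).

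Mef2c had 354, 371, 373 and 367 CPM in healthy and 290, 291, 284 and 334 CPM in MI mice, so that the groups did not overlap. Its log2 fold change was -0.38 ± 0.08 (SE, adjusted p = 0.00577, edgeR's quasi-likelihood test), called in all 20 alternatives. Sox4, a SoxC factor with roles in cell survival and migration, had 143.5, 203, 166 and 247 CPM in healthy and 175.5, 186, 236.5 and 200 CPM in MI mice, all of the latter within the healthy range. Its log2 fold change of -0.02 ± 0.16 (SE) was not called (adjusted p = 0.932, edgeR's quasi-likelihood test) and changed sign in 9 of 20 alternatives.

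**Figure D2:**
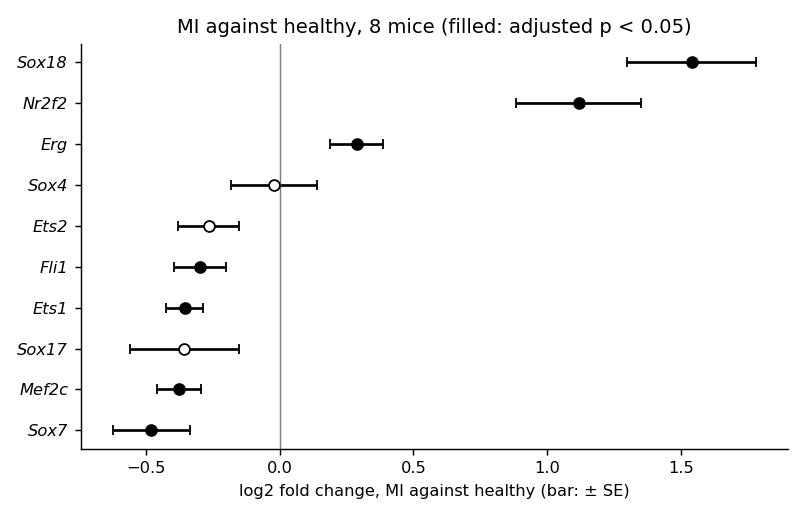
Log2 fold change of MI against healthy mice (x axis) with its SE for each gene, from sums over all EC of 8 mice. Sox18 (1.54) and Nr2f2 (1.12) stand apart on the right, and filled points mark the 7 genes with an adjusted p under 0.05.

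To compare cells at equal depth, each EC was thinned at random to 1000 UMIs, which left out 586 shallower cells, all of them from healthy mice. Values are the share of cells with a UMI, given as a description without a test. A UMI of Sox18 was found in 9.34, 7.38, 8.65 and 8.19% of healthy and in 26.2, 23.8, 13.7 and 29.0% of MI cells. Nr2f2 was found in 2.25, 2.40, 1.71 and 1.59% of healthy and in 3.90, 3.94, 7.97 and 4.21% of MI cells. In both genes the shares of the MI mice lay above those of the healthy mice at the same depth. For Erg the shares were 6.18 to 9.13% in healthy and 9.33 to 11.9% in MI mice, although the sums of the thinned cells did not pass the test. Ets1 (35.8 to 37.3% against 30.5 to 33.7%) and Mef2c (28.3 to 30.8% against 25.1 to 28.3%) were lower post-MI, although Mef2c in MI 256 (28.32%) was just above Healthy 227 (28.29%). The shares of Sox7, Sox17, Sox4, Fli1 and Ets2 overlapped between the groups. When the copied cells were kept, Sox18 had 5.70% in Healthy 228 in place of 7.38%, Sox17 had 18.8% in place of 16.3%, and Nr2f2 had 2.31% in place of 2.40%. In these bulk sums and shares, more cells with a transcript and more transcript per cell cannot be told apart.

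Cells of other types in the same libraries gave the background at 1000 UMIs, for which intervals are exact binomial 95% intervals that cover counting error only. Of 1317 haematopoietic cells (median 6844 UMIs before thinning), 1.44% (0.871 to 2.24%) had a UMI of Nr2f2, against 3.75% of 26302 EC (median 3181 UMIs). These haematopoietic cells came mostly from MI mice, with 18 of 1181 positive for Nr2f2 there (1.52%) against 1 of 136 in healthy mice (0.735%). Haematopoietic cells had a UMI of Sox17 in 3.87% and of Sox18 in 3.34% of cells, and EC in 16.9 and 17.5%. Of 375 mural cells (median 4906 UMIs), 25.3% (21.0 to 30.05%) had a UMI of Nr2f2 and 45.6% (40.5 to 50.8%) of Mef2c, both above the shares in EC (3.75 and 27.4%). Mural cells also had Sox17 in 15.5% and the endothelial gene Pecam1 in 28.8% of cells. Fli1 was found in 4.0% of mural and 23.2% of endothelial cells, and Mef2c in 36.8% of the haematopoietic cells of healthy mice, above their EC (29.7%), and in 16.7% of those of MI mice, below their EC (25.95%).

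The second comparison asked how the 10 genes differ between kinds of vessel. Each thinned EC was placed by 1 marker: arterial by at least 1 UMI of the connexin gene Gja4 (1770 cells), capillary by Car4 (3422), sprouting by the apelin gene Apln (1534), venous by Fmo2 (1165), and Plvap-high by at least 3 UMIs of Plvap (582). A further 743 cells met more than 1 rule and were left out of all classes, and 17086 cells (65.0%) met none. Such classes are ranges of 1 marker and not types, and cells without a marker UMI include cells in which it was missed. Of other markers, 7 of 7 arterial, 6 of 6 capillary, 6 of 7 sprouting, 5 of 7 venous and 6 of 7 Plvap-high check genes were higher in their own class. The separation was not clean, since 4 of 6 capillary check genes were higher in the venous class too (median log2 0.33), and 5 of 7 venous check genes in the Plvap-high class (median log2 0.98). A mouse gave 77 to 338 arterial, 126 to 642 capillary, 36 to 433 sprouting and 97 to 197 venous cells, and an MI mouse 36 to 297 Plvap-high cells, of which healthy mice gave 4 in all. The make-up differed between the groups, with capillary cells at 18.7 to 22.05% of EC in healthy and 3.36 to 12.5% in MI mice and sprouting cells at 1.66 to 3.25% and 6.26 to 10.4%, without overlap. The part of this shift in the changes over all EC was not tested. The 4 haemoglobin genes were lower in every class than in the other EC, and their part in the class values was not tested.

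Full counts of each class were summed per mouse and tested against the other EC of the same mouse with edgeR's quasi-likelihood test and the mouse as a block. Of the 10 genes 9 were called in the arterial class (27.3% of all genes tested), 7 in the capillary class (16.8%), 5 in the sprouting class (16.7%), 4 in the venous class (8.23%) and 4 in the Plvap-high class (23.1%). Sox17 was called in all 5 classes and was higher in the arterial class alone. For the other classes the EC compared include the arterial cells, which the rule keeps out of the class. Lower Sox17 there follows in part from that rule. Nr2f2 was lower in the arterial and capillary classes and higher in the venous and Plvap-high classes. Erg was called in none over all mice (adjusted p between 0.2435 and 0.867). Tested within the healthy and within the MI mice alone, the counts were 9 and 7 in the arterial class (14.1 and 24.1% of all genes), 6 and 7 in the capillary class (9.48 and 13.0%), 5 and 5 in the sprouting class (14.5 and 15.2%), and 6 and 4 in the venous class (5.70 and 5.14%).

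**Figure D3:**
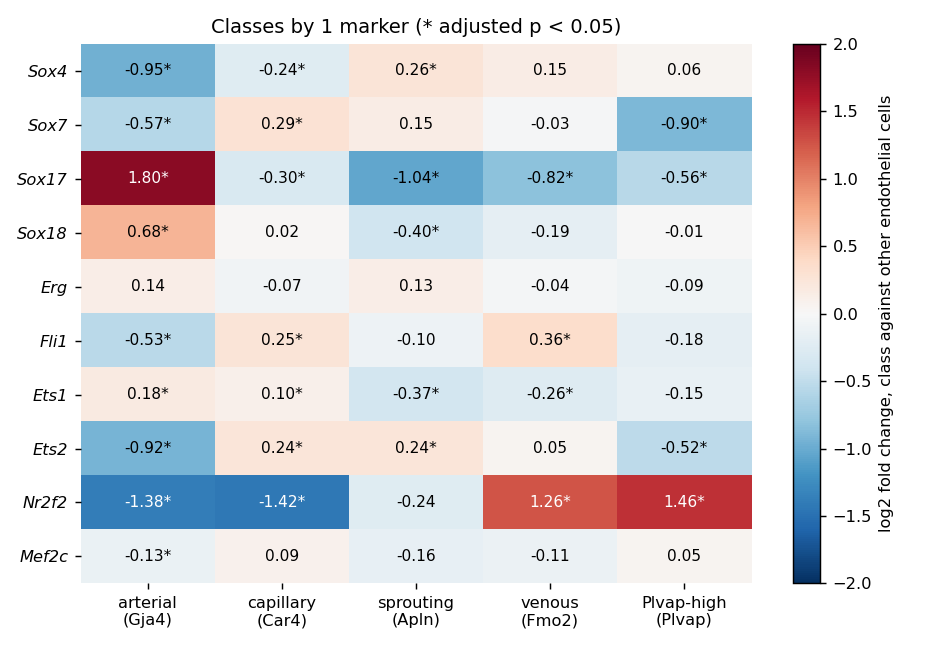
Log2 fold change of each gene (rows) in each class (columns) against the other EC of the same mice, coloured from -2 (blue) to 2 (red), with an asterisk where the adjusted p is under 0.05. Sox17 in the arterial class (1.80) and Nr2f2 in the Plvap-high class (1.46) are the highest values and Nr2f2 in the capillary class (-1.42) the lowest.

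In the arterial class Sox17 had 474, 495, 999 and 888 CPM in healthy and 610, 667, 610 and 531 CPM in MI mice. The other EC of the same mice had 146 to 292 and 155 to 168 CPM, all below the lowest arterial value. The log2 fold change was 1.80 ± 0.05 (SE, adjusted p = 9.25e-25, edgeR's quasi-likelihood test), with 1.75 within healthy and 1.90 within MI mice. Sox18 was higher in the arterial class in 8 of 8 mice, by log2 0.68 ± 0.05 (SE, adjusted p = 4.68e-15, edgeR's quasi-likelihood test). Its arterial level was 98.6 to 171 CPM in healthy and 205 to 528 CPM in MI mice. Sox7 was lower in the arterial class in 8 of 8 mice, at 70.3 ± 14.5 against 113.5 ± 25.3 CPM (SD, n = 8, log2 -0.57, adjusted p = 0.00154), and Sox4 likewise, at 100.1 ± 38.3 against 203 ± 36.3 CPM (log2 -0.95, adjusted p = 0.00641, with -1.64 within healthy and -0.69 within MI mice). Of the SoxF genes, 2 were higher and 1 lower in the same arterial sums.

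Away from the arterial class Sox17 was lowest in sprouting cells, with 98.6 ± 25.3 against 223 ± 61.6 CPM in the other EC (log2 -1.04 ± 0.14, adjusted p = 0.000636, with -1.605 within healthy and -0.84 within MI mice), and was lower there in 8 of 8 mice. It was also lower in venous (log2 -0.82, adjusted p = 7.36e-17), Plvap-high (-0.56, adjusted p = 0.000996, lost with another thinning seed at -0.50, and -0.35 without MI 255 and -1.04 at 1000 UMIs per cell, both called) and capillary cells (-0.30, adjusted p = 2.52e-07). The other EC in these tests include the arterial cells. All EC outside the arterial class had 184 ± 47.9 CPM of Sox17, beside 177 ± 37.2 in capillary, 124 ± 28.0 in venous and 98.6 ± 25.3 in sprouting cells (SD, n = 8). The capillary mean thus lay within the SD between mice of the non-arterial EC, and the difference within each mouse was not tested. Plvap-high cells had 137 ± 30.9 CPM, where the non-arterial EC of MI mice had 155 to 168 CPM. Sox18 was lower in sprouting cells in 8 of 8 mice (log2 -0.40, adjusted p = 9.63e-05, with -0.80 within healthy and -0.33 within MI mice). Sox7 was higher in capillary cells (log2 0.29, adjusted p = 6.29e-06) and lower in Plvap-high cells of the 4 MI mice, at 50.3 ± 10.2 against 98.5 ± 11.8 CPM (log2 -0.90 ± 0.12, adjusted p = 2.50e-06, lost at 1000 UMIs per cell at log2 -0.57). Sox4 was higher in sprouting cells in 8 of 8 mice (log2 0.26, adjusted p = 0.0207). That last call did not hold within the MI mice (log2 0.07, adjusted p = 0.371) and was lost without Healthy 227 (adjusted p = 0.0744), 228 (0.0661), 239 (0.0638) or 240 (0.0680) or MI 256 (0.0569), and with both cells of each shared pair left out (0.0945). The Sox4 call was also lost at 1000 UMIs per cell (adjusted p = 0.101), with a class threshold of 2 UMIs (0.801), with another thinning seed (0.158) and without the block (0.180). In all it held in only 8 of 19 alternatives. A class threshold of 2 UMIs ended the sprouting calls of Sox17 (log2 -0.97, adjusted p = 0.250) and Sox18 (log2 -0.26, adjusted p = 0.110) and the capillary call of Sox17 (adjusted p = 0.0531). Leaving out the block ended those of Sox18 in arterial (log2 0.76, adjusted p = 0.365) and sprouting cells (log2 -0.26, adjusted p = 0.817), with the direction kept. A fit without the block does not pair the 2 sums of a mouse, so that spread between mice, MI and healthy, counts as error.

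Among the ETS genes, Ets2 and Fli1 were lower in the arterial class in 8 of 8 mice. Ets2 had 128 ± 18.8 CPM there against 242 ± 27.55 CPM in the other EC (SD, n = 8, log2 -0.92 ± 0.06, adjusted p = 1.28e-18, edgeR's quasi-likelihood test), and Fli1 185 ± 36.2 against 257 ± 30.6 CPM (log2 -0.53 ± 0.05, adjusted p = 5.64e-12). Both were higher in capillary cells (log2 0.24 and 0.25, adjusted p = 1.705e-05 and 1.53e-06). Fli1 was also higher in venous cells in 8 of 8 mice (log2 0.36, adjusted p = 8.80e-08), and Ets2 in sprouting cells in 8 of 8 mice (log2 0.24, adjusted p = 0.007215, with 0.39 within healthy and 0.17 within MI mice). Both calls were lost at 1000 UMIs per cell (Fli1 log2 0.19, adjusted p = 0.281, and Ets2 log2 0.175, adjusted p = 0.348), with a class threshold of 2 UMIs (adjusted p = 0.397 and 0.458) and without the block (0.0883 and 0.2375), and that of Ets2 also with both cells of each shared pair left out (0.0794). Ets2 was lower in Plvap-high cells of all 4 MI mice, with 147 ± 5.25 against 224 ± 29.1 CPM (log2 -0.52, adjusted p = 1.61e-05).

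Ets1 had another order. It was lower in 8 of 8 mice in both sprouting (319 ± 43.2 against 418 ± 40.4 CPM, log2 -0.37, adjusted p = 0.000216, with -0.55 within healthy and -0.23 within MI mice) and venous cells (347 ± 32.95 against 416 ± 42.3 CPM, log2 -0.26, adjusted p = 4.04e-05, with -0.775 at a class threshold of 2 UMIs and the call lost without the block, adjusted p = 0.323). It was higher in arterial cells by log2 0.18 (adjusted p = 0.00463), which held within healthy mice (0.34) but not within MI mice (log2 0.11, adjusted p = 0.128). The arterial call was also lost at 1000 UMIs per cell (log2 0.14, adjusted p = 0.185), with a class threshold of 2 UMIs (log2 0.06, adjusted p = 0.721), with another thinning seed (adjusted p = 0.0506) and without the block (adjusted p = 0.344). The capillary value of log2 0.10 (adjusted p = 0.0377) kept its call without Healthy 239 but lost it without each other mouse (adjusted p between 0.0522 and 0.103), was lost with both cells of each shared pair left out (0.150) and held in only 6 of 19 alternatives. Mef2c varied little over the classes, between log2 -0.16 in the sprouting and 0.09 in the capillary class. Its 1 call over all mice, in the arterial class (log2 -0.13, adjusted p = 0.0467), was lost in 15 of 19 alternatives, with both cells of each shared pair left out (adjusted p = 0.196) and within either group of mice among them (adjusted p = 0.517 in healthy and 0.183 in MI). Single mice also decided it, since it was lost without Healthy 227 (adjusted p = 0.252) or 228 (0.205) and without MI 244 (0.0722), 250 (0.104), 255 (0.204) or 256 (0.187).

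Nr2f2 was called in 4 classes. In venous cells it had 94.5, 104, 152 and 82.1 CPM in healthy and 94.95, 92.1, 138 and 112 CPM in MI mice, where the other EC had 20.03 to 27.4 and 42.1 to 96.1 CPM. It was higher in venous cells in 8 of 8 mice, by log2 1.26 ± 0.27 over all mice (SE, adjusted p = 0.0321, edgeR's quasi-likelihood test), 2.19 ± 0.16 within healthy and 0.845 ± 0.10 within MI mice (adjusted p = 1.05e-38 and 1.855e-10). The call over all mice was lost without Healthy 227 (adjusted p = 0.0796), 228 (0.0635) or 240 (0.0722) or MI 244 (0.0744), 250 (0.0691) or 256 (0.0637), with the log2 fold change between 1.19 and 1.35. In Plvap-high cells it had 91.3, 143, 190 and 249 CPM against 40.6, 47.1, 86.4 and 58.9 CPM in the other EC of MI 244, 250, 255 and 256 (log2 1.46 ± 0.12, adjusted p = 2.20e-08). The mural markers, of cells that also carry Nr2f2, summed to 219 CPM in Plvap-high cells against 100.55 in cells with none of the markers, with 1 of 9 tested higher and 2 lower, and their part in the Nr2f2 level was not tested. It was lower in 8 of 8 mice in arterial (19.96 ± 6.59 against 47.8 ± 26.7 CPM, log2 -1.38, adjusted p = 3.28e-13, and -2.10 with a class threshold of 2 UMIs) and capillary cells (18.3 ± 11.3 against 49.05 ± 24.1 CPM, log2 -1.42, adjusted p = 3.63e-18).

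At 1000 UMIs the share of cells with a UMI of Nr2f2 was 15.05 ± 8.02% in Plvap-high (n = 4 mice), 8.52 ± 3.78% in venous, 3.73 ± 2.27% in sprouting, 1.69 ± 0.837% in arterial and 1.68 ± 0.852% in capillary cells (SD, n = 8). The arterial and capillary shares did not differ beyond their spread, at 1.22 and 1.07% in healthy and 2.17 and 2.296% in MI mice, where haematopoietic cells had 0.735 and 1.52%. The Plvap-high share lay above the venous one in only 2 of 4 MI mice. Sox17 stepped from 42.6 ± 7.30% in arterial cells to 16.1 ± 3.18% in cells with none of the markers, higher in 8 of 8 mice. Its other classes followed with 14.4% in capillary, 12.4% in Plvap-high, 11.7% in venous and 7.76% in sprouting cells, where capillary did not differ from Plvap-high, nor Plvap-high from venous, beyond its spread over the 4 MI mice. Cells with none of the markers stood 1.74 ± 1.78 percentage points above capillary cells (SD of the differences within a mouse, higher in 7 of 8 mice), a difference that was not tested. Capillary and venous cells, which are no neighbours in this order, had 138.7 to 258.5 and 81.8 to 169 CPM of Sox17, higher in capillary cells in 8 of 8 mice. Mef2c ranged only from 26.2% in venous to 28.3% in capillary cells, and no neighbouring pair of classes differed beyond its spread.

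Along the marker itself, in cells with 0, 1 and 2 UMIs of Gja4, the share with Sox17 was 16.6, 39.8 and 54.1% in healthy mice (4, 4 and 2 mice with at least 20 such cells) and 13.4, 35.6 and 48.5% in MI mice (4 mice). It was 57.3 ± 5.86% in MI cells with at least 3 UMIs of Gja4. Sox4 was found at the same steps in 14.7, 8.01 and 1.89% of healthy cells, the last again from 2 mice, and in 16.6, 8.19 and 6.735% of MI cells, with 8.71 ± 4.43% at 3 UMIs or more. In both groups its mean share was lower in cells with Gja4 than in those without. Sox18 was at 22.2, 32.2, 35.4 and 40.8% of MI cells with 0, 1, 2 and at least 3 UMIs of Gja4, with an SD of 19.8 percentage points in the last. In healthy mice it was at 8.14, 12.9 and 9.065% with 0, 1 and 2 UMIs, so that the share with 2 UMIs was below that with 1.

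With 0 and 1 UMI of Fmo2, Nr2f2 was found in 1.70 and 5.28% of healthy and in 4.82 and 7.46% of MI cells. With 0, 1 to 2 and 3 to 5 UMIs of Plvap it was found in 4.02 ± 1.34, 9.18 ± 1.91 and 13.5 ± 5.26% of MI cells. Sox7 was found in 9.21, 7.895 and 6.18% at the same steps of Plvap. Bins beyond these rest on 2 or 3 mice: Nr2f2 was at 3.84% of healthy and 14.2% of MI cells with 2 UMIs of Fmo2, and at 9.58 ± 10.02% of MI cells with at least 6 UMIs of Plvap.

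**Figure D4:**
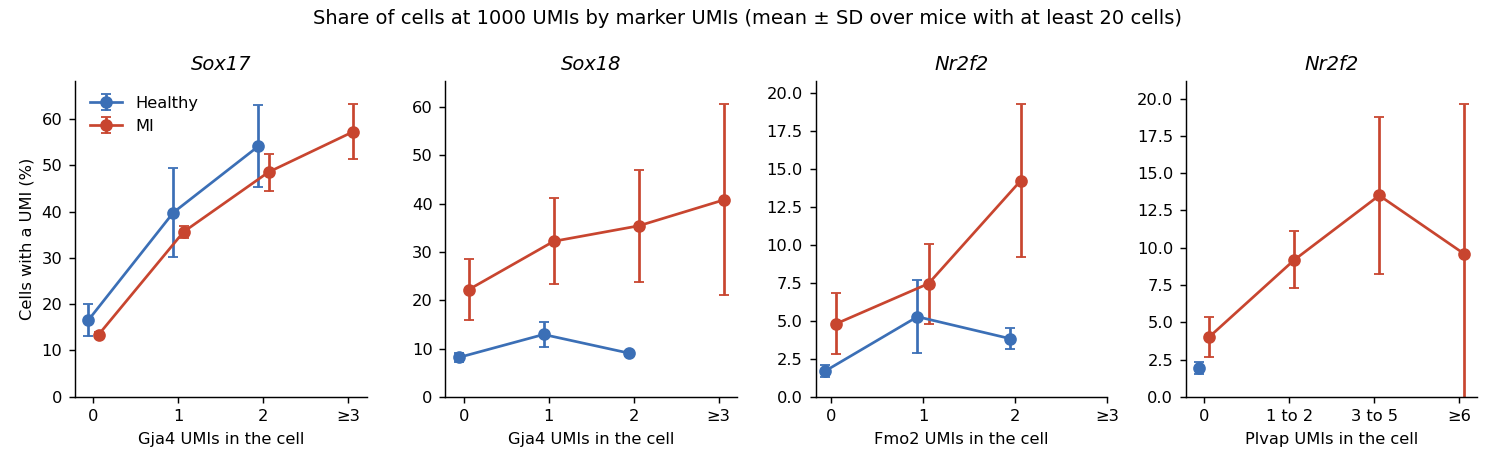
Share of cells with a UMI of Sox17, Sox18 or Nr2f2 (y axis, per cent of cells thinned to 1000 UMIs) by the number of UMIs of Gja4, Fmo2 or Plvap in the cell (x axis), as mean ± SD over the healthy (blue) or MI mice (red) with at least 20 cells in the bin, 2 to 4 mice a point. Sox17 is higher with more Gja4 UMIs in both groups, while Sox18 is higher in MI than in healthy mice at 0, 1 and 2 UMIs of Gja4, the bins that both groups fill.

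The third comparison set MI against healthy mice within each class, to ask whether changes over all EC were also measured among cells of the same marker. Sox18 was higher post-MI in all 4 classes that could be tested, by log2 1.62 ± 0.34 in arterial, 1.59 ± 0.27 in capillary, 1.99 ± 0.38 in sprouting and 1.87 ± 0.37 in venous cells (SE, adjusted p = 0.0199, 0.00748, 0.0222 and 0.0158, edgeR's quasi-likelihood test). It was also higher among cells with none of the markers (log2 1.51, adjusted p = 0.00256). In each of these classes the 4 MI values exceeded the 4 healthy ones. The calls in capillary cells and among cells with none of the markers held without each mouse in turn. Those in the other 3 classes were lost without Healthy 228 (adjusted p = 0.0755), Healthy 239 (0.0687) or MI 244 (0.0505) in arterial cells, without any 1 healthy mouse in sprouting cells (0.0625 to 0.0882), and without Healthy 227 (0.0723), 228 (0.0587) or 239 (0.0511) in venous cells, with the log2 fold change between 1.57 and 2.095 in these. The sprouting call was also lost with cells thinned to 1000 UMIs (log2 1.73, adjusted p = 0.135), with a class threshold of 2 UMIs (log2 1.53, adjusted p = 0.562), and with both cells of each shared pair left out (log2 1.85, adjusted p = 0.0740).

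Of the 10 genes 3 were called within arterial cells (13.5% of all genes tested), 3 within capillary (15.3%), 3 within sprouting (4.39%), 1 within venous cells (11.9%) and 6 among cells with none of the markers (33.7%). Among cells with none of the markers Nr2f2 (log2 1.12, adjusted p = 0.00526) and Erg (log2 0.39, adjusted p = 0.00988) were higher post-MI, and Ets1 (log2 -0.32, adjusted p = 0.00623) and Mef2c (log2 -0.35, adjusted p = 0.00901) lower, each called in all 10 alternatives run there. Sox7 was lower too (log2 -0.43, adjusted p = 0.0272), a call lost without Healthy 239 (adjusted p = 0.0731) or 240 (0.0763) or MI 244 (0.0619) or 255 (0.0790). Nr2f2 was higher in capillary cells, at 7.18 to 13.1 CPM in healthy and 16.9 to 43.0 CPM in MI mice (log2 1.11 ± 0.30, adjusted p = 0.0193), a call that was lost without Healthy 239 (adjusted p = 0.0624). The haematopoietic cells of the same libraries had 10.4 CPM in healthy and 28.7 CPM in MI mice, close to the capillary means of 10.6 and 26.02 CPM. Within venous cells Nr2f2 had a log2 fold change of -0.06 ± 0.19 (SE, adjusted p = 0.890). Sox4 was higher post-MI in arterial cells, at 42.3 to 97.7 against 95.3 to 167 CPM (log2 0.86 ± 0.23, adjusted p = 0.0195), and lower in sprouting cells (log2 -0.59 ± 0.16, adjusted p = 0.0431). The arterial call was lost without Healthy 239 (adjusted p = 0.0907), 240 (0.0607) or MI 255 (0.0517), at 1000 UMIs per cell (log2 0.34, adjusted p = 0.668) and with cells of 2 classes counted in each (log2 0.62, adjusted p = 0.0586) or both cells of each shared pair left out (log2 0.60, adjusted p = 0.0714). The sprouting call was lost without Healthy 228 (adjusted p = 0.111), 239 (0.145) or 240 (0.156) and without MI 244 (0.1395), 250 (0.0967) or 255 (0.0552), at 1000 UMIs per cell (log2 -0.63, adjusted p = 0.115) and with a class threshold of 2 UMIs (log2 -0.86, adjusted p = 0.170) or both cells of each shared pair left out (log2 -0.50, adjusted p = 0.149).

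Ets1 was lower post-MI in arterial cells, at 508, 662, 532 and 601 CPM in healthy and 403, 427, 344 and 454 CPM in MI mice without overlap (log2 -0.56 ± 0.13, adjusted p = 0.00472), and kept its call without each mouse in turn. The call was lost with cells thinned to 1000 UMIs (log2 -0.38, adjusted p = 0.168) and with a class threshold of 2 UMIs (log2 -0.52, adjusted p = 0.0590). Mef2c was lower in capillary cells (log2 -0.39 ± 0.11, adjusted p = 0.02755), a call lost without Healthy 228 (adjusted p = 0.0684) or MI 244 (0.0902), 250 (0.0926) or 255 (0.0761), at 1000 UMIs per cell (0.119) and with a class threshold of 2 UMIs (0.112). Ets2 was lower in sprouting cells (log2 -0.51 ± 0.14, adjusted p = 0.0434), a call that held in only 3 of 15 alternatives and was lost with both cells of each shared pair left out (adjusted p = 0.211) and without any 1 mouse other than MI 256 (adjusted p between 0.0509 and 0.174).

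Whether the MI effect itself differs between a class and the other EC was tested as the class-by-group term. It was called for 2 of the 10 genes in the arterial class (1.97% of all genes tested), 4 in the sprouting class (4.75%), 1 in the venous class (0.441%) and 0 in the capillary class (1.05%), where 0 of the 10 also had an unadjusted p under 0.05 with edgeR, the only tool run for this term. Plvap-high cells of healthy mice were too few for it. For Nr2f2 the venous term was log2 -1.31 ± 0.19 (SE, adjusted p = 1.365e-06, edgeR's quasi-likelihood test), with 82.1 to 152 CPM in venous cells against 20.03 to 27.4 in the others of healthy mice, and 92.1 to 138 against 42.1 to 96.1 CPM post-MI. That difference was called without each mouse in turn and with copied cells kept, between log2 -1.48 and -1.06, and was -1.03 (adjusted p = 0.000925) with both cells of each shared pair left out.

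Erg was higher in arterial than in other EC of all 4 healthy mice (113 to 145 against 71.2 to 97.3 CPM, log2 0.63), and in MI mice had 110 to 120 against 106 to 124 CPM (log2 -0.03, adjusted p = 0.778). The difference was log2 -0.67 ± 0.14 (SE, adjusted p = 0.000599, edgeR's quasi-likelihood test), and was lost without Healthy 239 (log2 -0.55, adjusted p = 0.0657). For Sox7 the arterial deficit was smaller post-MI by log2 0.70 ± 0.16 (adjusted p = 0.005025), from -1.04 in healthy to -0.34 in MI mice, and the call was lost without Healthy 240 (log2 0.58, adjusted p = 0.0839).

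In sprouting cells the deficit of Sox17 was smaller post-MI by log2 0.82 ± 0.17 (adjusted p = 0.000631), with 54.0 to 101 CPM in healthy and 95.3 to 146 CPM in MI mice. Sox4 was higher in sprouting cells in healthy (194, 336, 314 and 333 CPM against 141 to 243 in other EC) and had 178, 195, 239 and 226 CPM against 175.5 to 238 in MI mice, a difference of log2 -0.50 ± 0.11 (adjusted p = 0.00111). Both calls were lost without Healthy 239 (adjusted p = 0.0930 for Sox17 and 0.0963 for Sox4) and with both cells of each shared pair left out (log2 0.48, adjusted p = 0.206 for Sox17, and log2 -0.41, adjusted p = 0.0815 for Sox4). The sprouting class held only 36 to 101 cells in each healthy mouse. Fli1 (log2 0.40, adjusted p = 0.0177) and Ets1 (log2 0.35, adjusted p = 0.0352) were called too, but Fli1 lost its call without Healthy 239 or 240 or MI 244, 255 or 256 (adjusted p between 0.0504 and 0.129), and Ets1 without Healthy 227, 228 or 239 or MI 244, 250 or 255 (0.0620 to 0.282). With both cells of each shared pair left out Fli1 (adjusted p = 0.222) and Ets1 (0.294) were not called either, so that none of the 4 sprouting terms held there.

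**Figure D5:**
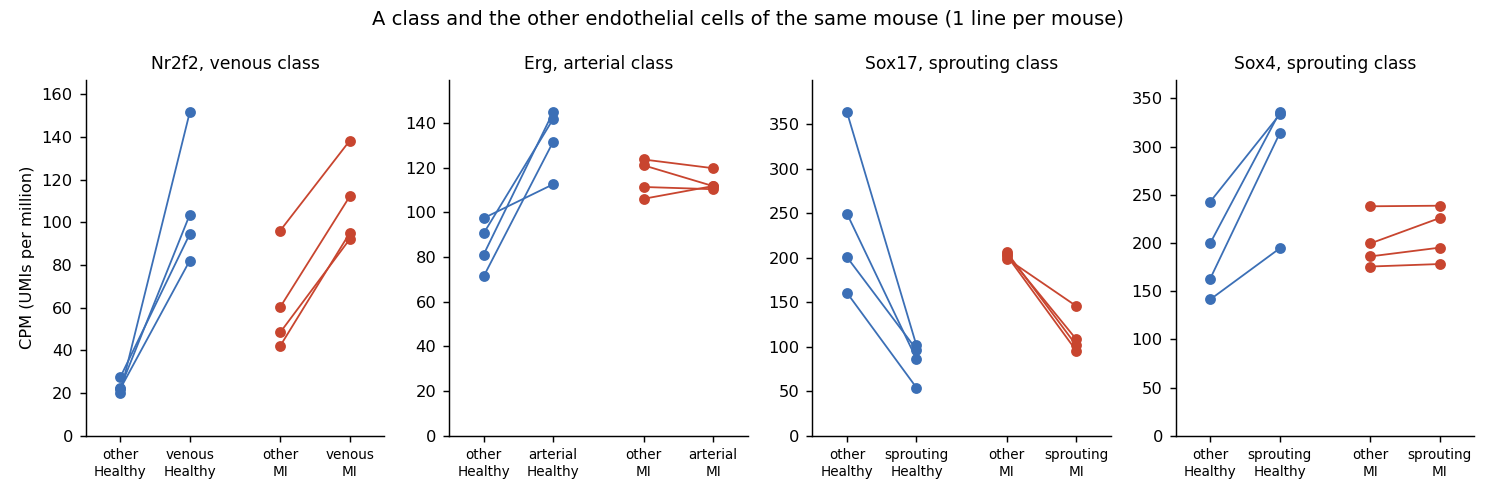
Level in CPM (y axes from 0) of Nr2f2, Erg, Sox17 and Sox4 in a class and in the other EC of the same mouse, with 1 line per mouse, healthy mice in blue and MI mice in red. Erg is higher in arterial cells in the 4 healthy mice and not in 3 of the 4 MI mice, and Nr2f2 is higher in venous cells in all 8 mice.

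Related genes were counted from fixed lists over all EC, where 37.4% of all genes tested were called. The counts of a list are read against that share, which several of them do not exceed. Of 14 other ETS factors tested 4 were higher and 1 lower post-MI, with Spi1, the myeloid factor PU.1 (0 to 1.045 against 2.71 to 4.63 CPM), and Etv4 (0.406 to 1.05 against 2.35 to 7.31 CPM) the most raised and Etv3 lowered (log2 -0.54, adjusted p = 0.0119). The haematopoietic markers rose as well, 12 of 18 higher. Of 3 other Sox factors tested, 1 was called, Sox11, at 0 to 0.785 CPM in healthy and 1.96 to 4.45 CPM in MI mice. The healthy side of these 3 genes was close to 0, with 11 UMIs of Spi1, 20 of Etv4 and 14 of Sox11 in all healthy EC, against 310, 452 and 231 in MI mice. Of 4 other MEF2 and COUP factors 1 was called, Mef2a, which fell like Mef2c (log2 -0.39, adjusted p = 0.008105, edgeR's quasi-likelihood test). Of 7 MEF2 and stress targets 3 were lower, Klf4 (log2 -0.78) and Klf2 (-0.57) the most, and the 10 genes of the response to dissociation overlapped between groups (5176 to 8584 against 5346 to 7595 CPM).

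Against the same 37.4%, of 13 arterial and Notch genes 6 were lower and 1 higher post-MI, with Hey1 (log2 -0.86) and Sema3g (-0.62) the most lowered and Gja5 raised (1.35). Of 9 venous genes 4 were higher, among them Selp (0.916 to 3.25 against 18.7 to 91.9 CPM) and Ackr1 (0 to 1.31 against 8.85 to 126 CPM). Of 21 other endothelial regulators tested 4 were higher and 7 lower, with Tbx3 (log2 -1.64) and Tcf15 (-1.06) lowered the most and Foxc2 (1.655) and Lyl1 (0.66) raised the most. Of 16 pan-endothelial genes 12 were not called, Ptprb (log2 -0.94) and Kdr (-0.89) fell the most and Ecscr (0.31) rose. Of the 8 proliferation genes all rose.

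The classes called 27.3% (arterial), 8.23% (venous), 23.1% (Plvap-high), 16.7% (sprouting) and 16.8% (capillary) of all genes tested, beside which their lists stand. Within arterial cells 12 of 13 arterial and Notch genes were higher, among them Gja4, which defined the class, and 1 lower, while 6 of 9 venous genes were lower and 1 higher. In venous cells 10 of 13 arterial and Notch genes were lower and 5 of 9 venous genes higher, and in Plvap-high cells 12 of 13 lower and 4 of 9 higher, with 1 lower. Arterial and Notch genes were also lower in sprouting (9 of 13) and capillary cells (5 of 13, with 1 higher), as were venous genes (6 of 9 and 4 of 9, with 1 higher in each). The arterial list holds Gja4, and the class rule kept cells with a UMI of Gja4 out of all classes but the arterial one. A lower level of Gja4 in the venous, Plvap-high, sprouting and capillary classes therefore follows from the rule. The other EC of these classes include the arterial cells, so that lower levels of the other list genes that were higher in arterial cells follow from it in part. Markers of other cells also moved in the arterial class, with 6 of 10 mural markers tested higher (227 CPM summed over the class against 74.8 in capillary cells) and 3 of 5 lymphatic markers (186 against 33.7 CPM), and their part in the arterial values was not tested. Sox17 was found in 15.5% of mural and in 42.6% of arterial cells, given as a description without a test. Cardiomyocyte markers were lower in arterial (6 of 6 tested) and Plvap-high cells (5 of 6) and higher in capillary cells (3 of 6). Proliferation genes were lower in arterial and capillary (8 of 8 in each) and Plvap-high cells (6 of 8). The part of these 2 lists in the class values was not tested. In sprouting cells 9 of 10 dissociation genes and 7 of 7 MEF2 and stress targets were lower, and in venous cells 6 of 10 dissociation genes and 5 of 7 MEF2 and stress targets higher. In Plvap-high cells 7 of 10 dissociation genes were lower, with 4 of 7 MEF2 and stress targets lower and 1 higher. Mef2c was called in none of these 3 classes.

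Over the 44 sums of a class and a mouse, among 6181 genes whose mean level reached 20 CPM, the genes most like each factor were named by Pearson's r of log2 CPM, as a description of sums that share libraries and depth. The classes were set by marker UMIs, so that genes that differ between the classes correlate in part through the class rule. Sox17 was followed most closely by the Notch target Hey1 (r = 0.937), Sema3g (0.914) and Tm4sf1 (0.913), of which Hey1 and Sema3g are on the arterial and Notch list. Nr2f2 was followed by the adhesion gene Icam1 (r = 0.883), Cpe (0.881) and the leukotriene receptor gene Cysltr1 (0.880). Ets2 was nearest to Tnfrsf21 (r = 0.880), Itga6 and Gpihbp1, Sox7 to Cyp4b1 (0.854), Tnfrsf21 and Fam102b, and Sox18 to Serinc3 (0.853), Nptn and Akr1a1. Fli1 was nearest to Meox2 (r = 0.828), Max and Fmo1, Ets1 to Elovl5, Smad6 and Gata2, and Sox4 to Nrp2 (0.799), Pgm5 and Bok. Mef2c was nearest to mt-Nd3 (r = 0.798), Myo18a and mt-Nd2, and Erg, with the lowest value of all, to Slmap (0.684), Ict1 and Tmem47.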

How the data were processed

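Single-cell RNA sequencing was performed by the authors on sorted EC of 4 healthy and 4 MI mice with the 10X 3′ kit. Per the labels and methods, the authors used Cell Ranger 2.1.0 with mm10 (Ensembl 84), R 3.5.2 and Seurat 2.3, and left out cells with fewer than 400 genes or more than 20% mitochondrial transcripts. The authors deposited raw UMI counts, without normalization. Depth limits a gene per mouse to the 138 to 8992 UMIs summed over EC here.

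Groups were taken from the sample labels, and the mouse numbers in the table and the labels agree. Members and lists were chosen with earlier results of these data known. UMIs were summed per mouse, or per mouse and class with at least 20 cells, and tested with edgeR 4.0.16 (TMM, filterByExpr, robust quasi-likelihood fit, R 4.3.3), with Benjamini-Hochberg adjustment over all genes tested and a threshold of 0.05. Class tests had the mouse as a block because both sums come from 1 mouse. SE was derived from the F statistic. For MI against healthy mice a p-value is set against the spread between mice. Where the mouse is a block it is set against the spread over mice of the difference between a class and the other EC. Thinning drew UMIs without replacement to 1000 per cell. No doublet caller was run: the sort had a doublet gate, cells of 2 classes were left out, and 1 alternative leaves out the cells with the most UMIs (0.8% per 1000 cells of a mouse). On simulated counts, 87.4% of 199 genes with a log2 change of 1 were recovered over all EC, with 4.92% false calls, and 88.9% of 198 in the arterial class, with 5.38%. All genes were drawn there at the same dispersion, and the 2 sums of a mouse shared no effect of that mouse. Smaller changes, such as those of Erg and Fli1, were not simulated. Named list genes were the called ones with the 2 highest and 2 lowest log2 fold changes.

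Alternatives were DESeq2 1.42.0, no filter on low counts, scaling to total UMIs, Xist as a covariate, copied cells kept, all deposited cells, thinned cells, another thinning seed, a threshold of 2 UMIs (5 for Plvap), cells of 2 classes counted in each, no block, and each mouse left out. Leaving out Plvap-marked cells, the healthy mice with copied cells or both cells of each shared pair, the tests within each group, and the class without markers were added after seeing the data. Python 3.11.15 with numpy 2.4.6, scipy 1.17.1 and pandas 2.3.3 was used.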

Additional observations from a re-analysis of the deposited data

Results flagged for a closer look

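Single mice stood apart in 2 cases from the 3 others of their group by Dixon's criterion, among 20 groups tested, of which chance flags about 1 in 20. Healthy 228 had the highest Ets1 level of the healthy mice (468.2 CPM, the others 442.6 to 443.3), and MI 256 the highest Mef2c level of the MI mice (334.4 CPM, the others 283.9 to 291.4). Healthy 228 is the library that lost most cells as copies. At 1000 UMIs per cell Ets1 was found in 37.3% of its cells, the highest healthy share, and in 33.6%, the lowest, when the copied cells were kept. MI 256 is the MI library with the fewest UMIs, and at 1000 UMIs per cell its Mef2c share was still the highest of the MI mice (28.3%, the others 25.1 to 25.6%).

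The class-by-group term, that is the difference of the MI effect between a class and the other EC, was called in 7 of 40 tests (edgeR's quasi-likelihood test). In arterial cells these were Sox7 (log2 0.696) and Erg (-0.6733). In sprouting cells they were Sox17 (0.8153), Fli1 (0.4022), Ets1 (0.3496) and Sox4 (-0.5025), and in venous cells Nr2f2 (-1.306). Of all genes tested the term was called for 1.97% in the arterial, 1.05% in the capillary, 4.75% in the sprouting and 0.441% in the venous class. None of the sprouting terms was called with both cells of each shared pair left out, and only that of Nr2f2 was called without each mouse in turn.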

How the results depend on the processing

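Sox18, Nr2f2, Ets1 and Mef2c kept their direction and call over all EC in all 20 alternatives. Sox4, at log2 -0.02, ranged from -0.1406 to 0.1289 with 1 mouse left out and turned sign, with log2 values of 0.002395 (copied cells kept), 0.0607 (both cells of each shared pair left out), 0.0729 (scaling to total UMIs), 0.0161 (cells with the most UMIs left out), 0.00467 (Xist as a covariate), 0.0248 without Healthy 228, 0.129 without Healthy 240, 0.0364 without MI 244 and 0.0129 without MI 250.

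Counts of all genes called moved by over 1.5 times as follows, and the cause was not tested beyond the fewer UMIs, cells or mice of an alternative. With cells thinned to 1000 UMIs they were 2645 in place of 4600 over all EC; 1504, 745, 751, 370 and 841 in the arterial, capillary, sprouting, venous and Plvap-high class in place of 3186, 1947, 1993, 933 and 2916; and 284, 393, 102 and 223 for MI within the first 4 in place of 1076, 1330, 326 and 796. With a threshold of 2 UMIs they were 2047, 1168, 907 and 479 for these 4 classes and 306, 185, 32 and 45 for MI within them. With no replicate block, that is without pairing the 2 sums of a mouse, they were 977, 93, 714 and 154, under which every call of the 10 genes in the capillary class but that of Nr2f2 was lost. Spread between mice counts as error in that fit. Within healthy mice they were 1511 (arterial), 1004 (capillary) and 607 (venous). MI within sprouting cells gave 627 without a filter, MI within venous cells 511 with DESeq2, and the arterial class-by-group term 351 in place of 230 with copied cells kept. With both cells of each shared pair left out, MI within sprouting cells gave 182 in place of 326 and the sprouting class-by-group term 374 in place of 568.

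Leaving out 1 mouse at a time gave 633 to 1301, 691 to 1610 and 147 to 382 calls for MI within arterial, capillary and sprouting cells, and 137 to 286, 78 to 143, 334 to 646 and 34 to 83 for the class-by-group term in arterial, capillary, sprouting and venous cells. Shares of cells with a UMI move with the depth to which cells were thinned: for Sox18 MI exceeded healthy by 14.8 percentage points at 1000 UMIs, 7.71 at 500 and 24.4 at 2000.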
